A study of Mus musculus with 10 samples.

Results

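The genes described here are the 4 Notch receptors of the mouse (Notch1, Notch2, Notch3 and Notch4), 5 of their ligands (Dll1, Dll3, Dll4, Jag1 and Jag2) and Rbpj. They were chosen by name, as 10 of the 21938 protein-coding genes of GENCODE M21 on mm10. The study profiled F123 cells, a mouse embryonic stem cell (mESC) line from an F1 cross of Mus musculus castaneus with S129/SvJae mice, with no treatment or second genotype. CF1 mouse fibroblasts served as feeders in culture and were left out at the last passage, and the medium contained LIF. Of the 10 samples of the study, the 4 described here are 2 replicates of H3K4me3 ChIP-seq and 2 replicates of ATAC-seq. The remaining 6 samples, PLAC-seq and ChIP-seq input, were not analysed here. Each assay was deposited as a single list of replicated peaks, with 33487 H3K4me3 peaks and 179109 ATAC peaks. Neither list holds read counts or values per replicate. Library depth is therefore unknown and the spread between replicates cannot be given, so the differences given below are descriptions and were not tested.

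Notch receptors are proteins of the cell surface that bind ligands on a neighbouring cell. Binding leads to cuts by an ADAM protease and by γ-secretase, which free the intracellular domain of the receptor. This domain enters the nucleus and joins Rbpj, a DNA-binding protein that otherwise recruits co-repressors, and the joint complex turns on targets such as Hes and Hey genes. In embryonic stem cells the pathway is known mainly for favouring neural differentiation. H3K4me3 is a histone mark found at the starts of active genes and of many developmental genes held ready for use, and ATAC-seq marks open chromatin.

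The sequences below are examples from genes with strong and weak H3K4me3 peaks at their starts. They are 300 bases each of the mm10 reference (RefSeq), on the strand of the gene and 5′ to 3′, with every CpG dinucleotide in capitals. The cells are a cross of other strains, so their own alleles can differ from the reference. The first 4 end at the base before the principal start, which is the start of the principal transcript of the gene. They belong to Notch3, which had a strong peak, to Jag1, to Dll3, and to Notch4, which had a weak one. The last 2 are centred on the summits of H3K4me3 peaks inside genes, in intron 2 of Notch3 and in exon 7 of Dll3, neither of which overlapped an untranslated region.
Notch3, before the principal start, mm10 chr17:32166853-32167152, minus strand: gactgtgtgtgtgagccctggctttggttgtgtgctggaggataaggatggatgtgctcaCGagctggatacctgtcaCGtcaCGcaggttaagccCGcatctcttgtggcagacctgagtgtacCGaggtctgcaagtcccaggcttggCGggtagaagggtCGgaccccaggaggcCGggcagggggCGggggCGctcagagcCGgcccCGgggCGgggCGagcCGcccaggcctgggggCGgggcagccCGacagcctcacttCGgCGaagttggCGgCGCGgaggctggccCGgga
Jag1, before the principal start, mm10 chr2:137116645-137116944, minus strand: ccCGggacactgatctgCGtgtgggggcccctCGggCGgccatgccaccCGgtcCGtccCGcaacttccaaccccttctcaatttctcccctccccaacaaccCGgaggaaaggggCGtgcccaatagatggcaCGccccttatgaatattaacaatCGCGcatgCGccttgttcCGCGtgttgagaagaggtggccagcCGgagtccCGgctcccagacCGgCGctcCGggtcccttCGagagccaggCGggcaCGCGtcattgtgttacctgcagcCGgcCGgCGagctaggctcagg
Dll3, before the principal start, mm10 chr7:28302239-28302538, minus strand: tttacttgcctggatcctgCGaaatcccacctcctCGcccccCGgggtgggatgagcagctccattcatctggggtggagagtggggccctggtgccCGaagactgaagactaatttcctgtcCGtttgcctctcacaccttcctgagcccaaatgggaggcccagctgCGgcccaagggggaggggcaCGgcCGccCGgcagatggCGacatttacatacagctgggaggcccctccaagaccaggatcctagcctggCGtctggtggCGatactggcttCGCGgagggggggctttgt
Notch4, before the principal start, mm10 chr17:34563968-34564267, plus strand: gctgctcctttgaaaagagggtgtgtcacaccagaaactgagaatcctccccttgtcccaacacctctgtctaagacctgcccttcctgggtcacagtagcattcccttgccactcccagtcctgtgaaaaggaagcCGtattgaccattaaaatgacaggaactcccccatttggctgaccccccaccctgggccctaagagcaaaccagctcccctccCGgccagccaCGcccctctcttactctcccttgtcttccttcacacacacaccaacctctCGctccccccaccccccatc
Notch3, intron 2 peak, mm10 chr17:32162427-32162726, minus strand: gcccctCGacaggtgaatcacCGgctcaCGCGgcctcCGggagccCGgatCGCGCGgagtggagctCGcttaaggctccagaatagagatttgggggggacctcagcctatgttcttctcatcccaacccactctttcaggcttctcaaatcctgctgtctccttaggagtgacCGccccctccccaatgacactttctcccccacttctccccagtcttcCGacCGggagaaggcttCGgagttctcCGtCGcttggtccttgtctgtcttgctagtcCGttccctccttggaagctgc
Dll3, exon 7 peak, mm10 chr7:28294645-28294944, minus strand: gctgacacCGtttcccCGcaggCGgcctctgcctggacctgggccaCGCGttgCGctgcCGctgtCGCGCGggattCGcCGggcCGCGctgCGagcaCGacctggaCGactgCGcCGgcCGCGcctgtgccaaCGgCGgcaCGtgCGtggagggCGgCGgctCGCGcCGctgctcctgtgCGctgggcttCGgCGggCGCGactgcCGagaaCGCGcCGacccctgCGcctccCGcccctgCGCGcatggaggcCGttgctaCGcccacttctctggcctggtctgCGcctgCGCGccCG

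By the 5′ end of the annotated gene, 9 of the 10 genes had an H3K4me3 peak within 2 Kb, against 66.4% of all protein-coding genes. The same 9 had an ATAC peak there, against 74.6%. The same 9 thus had both, against 65.9%, and Notch1 had neither. The 5′ ends of Notch1 and Rbpj belong to transcripts that begin 12841 and 124319 bp upstream of the principal transcript. Among all protein-coding genes, 6.62% had a principal start over 2 Kb from the 5′ end. The principal start was therefore used beside the 5′ end, a choice made after the peaks had been seen. Around the principal start all 10 genes had an H3K4me3 peak, against 67.0% of protein-coding genes, and all 10 had an ATAC peak, against 74.9%. In all 10 the principal start lay inside an H3K4me3 peak, against 62.6%, and inside an ATAC peak, against 64.2%. The start was inside both in all 10, against 59.4%. The strength of the H3K4me3 peak differed far more between the genes than its presence did, from a fold enrichment of 2.83 at Notch4 to 43.3 at Rbpj. Fold enrichment is the ratio of ChIP signal to background at the peak, as deposited, and the deposited −log10 q values rank the certainty of each peak.

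**Figure D1:**
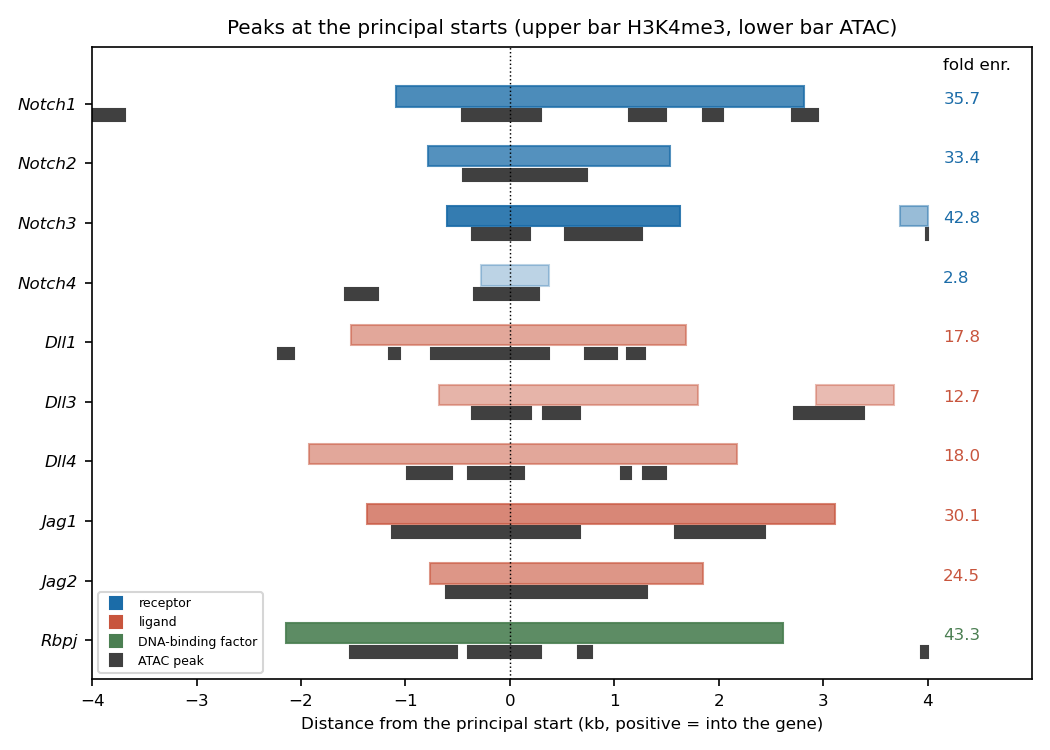
Peaks around the principal start of each gene, with distance in Kb on the x axis and one row per gene. Upper bars are H3K4me3 peaks, shaded darker with fold enrichment, and lower bars are ATAC peaks. The value printed at the right is that of the H3K4me3 peak centred within 2 Kb of the principal start. Bars end at 4 Kb either side. Peaks upstream of a gene are drawn only within 2 Kb of its 5′ end or principal start. The dotted line at 0 crosses an H3K4me3 bar and an ATAC bar in all 10 rows, and the palest bar is that of Notch4, at 2.83.

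Of the receptors, Notch3, best known in vascular smooth muscle, had the strongest start peak. Notch3 lies on the minus strand of chromosome 17, from 32120820 to 32166852. Its start peak had a fold enrichment of 42.8, a −log10 q of 509 and a width of 2236 bp. Of the 14701 protein-coding genes with a peak at the principal start, 80.7% had a lower fold enrichment.

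Notch1, the receptor with the widest known use in development, lies on the minus strand of chromosome 2, from 26457903 to 26516663. The peak over its principal start reached a fold enrichment of 35.7, with a −log10 q of 570, above 63.8% of marked genes. At 3905 bp it was wider than those of 89.4% of them. Within 2 Kb lay 3 ATAC peaks, which covered 1311 bp in sum.

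Notch2 lies on the plus strand of chromosome 3, from 98013527 to 98150361. Its start peak had a fold enrichment of 33.4, a −log10 q of 599 and a width of 2318 bp, above 57.4% of marked genes in fold enrichment. A single ATAC peak of 1190 bp covered the start, wider than 97.6% of the peaks in the ATAC list.

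Notch4, known mainly from endothelium, lies on the plus strand of chromosome 17, from 34564268 to 34588503. Its start peak stood far below the other receptors, with a fold enrichment of 2.83, a −log10 q of 4.75 and a width of 649 bp. In fold enrichment it exceeded 0.354% of marked genes. The start was nevertheless inside an ATAC peak of 620 bp, wider than 84.4% of that list.

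Among the ligands, the Jagged genes had stronger start peaks than the Delta-like genes. Jag1, on the minus strand of chromosome 2 from 137081456 to 137116644, had a fold enrichment of 30.1, a −log10 q of 487 and a width of 4484 bp. Its width exceeded 93.9% of marked genes, while its fold enrichment exceeded 48.6%. The ATAC peak over the Jag1 start was 1806 bp wide, in the top of the list (99.8% of ATAC peaks were narrower). Jag2, on the minus strand of chromosome 12 from 112907819 to 112929776, had a fold enrichment of 24.5, a −log10 q of 364 and a width of 2618 bp. Its single ATAC peak of 1929 bp was wider than 99.9% of the list.

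The Delta-like genes held the lowest values of the ligands. Dll4, a ligand with a known role in sprouting vessels, lies on the plus strand of chromosome 2 from 119325784 to 119335962. Its start peak was wide at 4099 bp, but its fold enrichment was 18.0 and its −log10 q 202. Dll1, known from somite and neural development, lies on the minus strand of chromosome 17 from 15367354 to 15376872. Its start peak covered 3207 bp, and its fold enrichment was 17.8 with a −log10 q of 188. Dll4 and Dll1 each had 4 ATAC peaks within 2 Kb of the principal start, a number above that of 97.8% of genes with an ATAC peak there. Both start peaks also held the start of a noncoding gene. That of Dll1 held A930024N18Rik, a lincRNA that starts 976 bp into Dll1 on the other strand, and that of Dll4 held Gm14207, which starts 410 bp into Dll4 on the other strand. The 2 promoters of each pair cannot be told apart within a peak. Dll3, a divergent ligand that acts within its own cell, lies on the minus strand of chromosome 7 from 28293553 to 28302238. Its start peak had a fold enrichment of 12.7, a −log10 q of 113 and a width of 2475 bp, above 12.6% of marked genes in fold enrichment.

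Rbpj lies on the plus strand of chromosome 5 from 53466152 to 53657362 and had the highest fold enrichment of the 10. At the principal start the value was 43.3, with a −log10 q of 620 and a width of 4769 bp. These exceeded 81.7% of marked genes in fold enrichment and 95.3% in width. At the 5′ end of the gene Rbpj had a weak peak, 1389 to 2465 bp into the gene, where the fold enrichment was 3.42 and the −log10 q was 7.04.

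By role, the median fold enrichment at the principal start was 34.5 for the 4 receptors (2.83 to 42.8), 18.0 for the 5 ligands (12.7 to 30.1) and 43.3 for Rbpj. Over all marked protein-coding genes the median was 30.6. The ranges of receptors and ligands overlapped because of Notch4. The other 3 receptors, a grouping made after that value was seen, lay between 33.4 and 42.8, above each ligand. Peak width did not follow the same order. Its median was 2277 bp for receptors (649 to 3905), 3207 bp for ligands (2475 to 4484) and 2251 bp for all marked genes, and Rbpj had 4769 bp. The summed width depends on the window, and with 5 Kb either side of the 5′ end it rose from 3207 to 5304 bp at Dll1 and from 2236 to 3564 bp at Notch3. The ATAC peaks within 2 Kb covered a median of 1244 bp at receptors, 1708 bp at ligands and 1854 bp at Rbpj, against 999 bp over the 16428 protein-coding genes with such a peak. By medians within 2 Kb, ligand peaks were thus broader and lower than receptor peaks. These are groups of 5 and 4 genes with 1 value each and overlapping ranges. The medians by role are at the principal start, a choice made after the peaks had been seen. By the 5′ end Rbpj had a fold enrichment of 3.42, below each ligand, and Notch1 had no peak within 2 Kb.

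**Figure D2:**
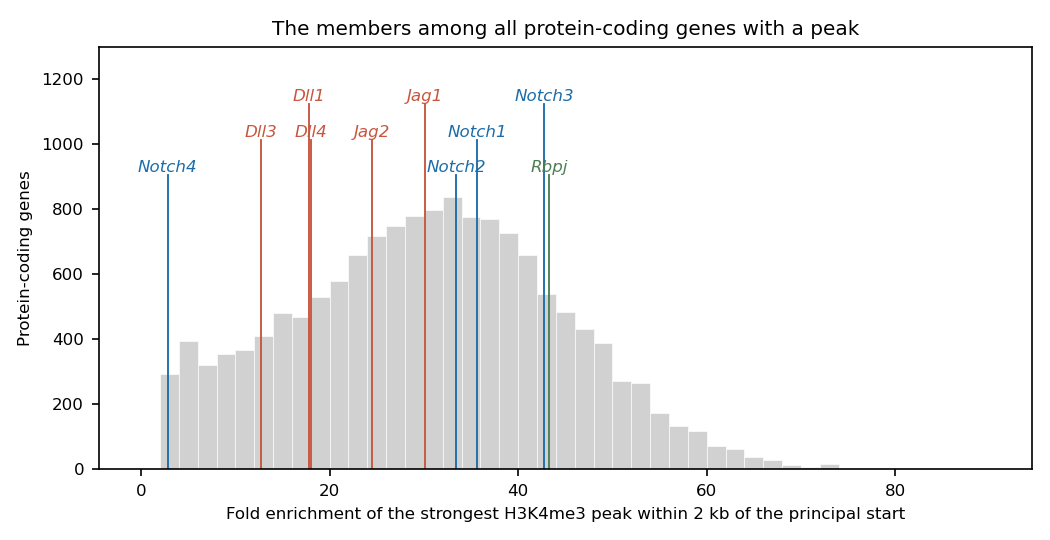
Number of protein-coding genes (y axis) by fold enrichment of the strongest H3K4me3 peak within 2 kb of the principal start (x axis, bins of 2), for the 14701 genes with a peak. Lines mark the receptors in blue, the ligands in red and Rbpj in green; Notch4 at 2.83 stands at the lower end, the ligands run from 12.7 to 30.1, and Rbpj at 43.3 lies above the median of 30.6.

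Inside the genes, the 10 members held 33 H3K4me3 peaks and 102 ATAC peaks. The receptors had 12 and 32 of these, the ligands 12 and 26, and Rbpj 9 and 44. Of the H3K4me3 peaks, 23 lay over 2 Kb from the principal start, in 9 of the 10 genes. Over all protein-coding genes, 26.5% had such a peak. Dll1 had none. These genes differ in length, which affects such a count, with medians of 52.4 Kb for receptors, 10.2 Kb for ligands and 17.4 Kb for all protein-coding genes, and 191 Kb for Rbpj. Most of the 23 peaks were weak. Their median fold enrichment was 4.84, and 18 of the 23 fell under the list median of 8.93. The whole list includes peaks at gene starts, and far peaks of other genes were not summarised for comparison. By their summits, 8 lay upstream of the principal transcript (all in Rbpj), 7 in introns, 6 in coding exons and 2 in untranslated regions.

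At Notch4 and Dll3, the strongest H3K4me3 peak of the gene lay away from the principal start, as it did in 9.09% of all protein-coding genes. That share is 1995 of 21938 genes, of which 5821 had any peak in the gene over 2 Kb from the start. The 1995 also include genes without a peak at the principal start, so the share is not a like comparison for these 10 genes. Measured from the 5′ end, the strongest peak lay elsewhere in 4 genes, Notch1 and Rbpj added, against 9.85%, a share over the same 21938 genes. Within Dll3 the peak with its summit in exon 7 ran from 6848 to 8288 bp past the start. Its fold enrichment was 28.7, against 12.7 at the start, its −log10 q was 310 and its width 1441 bp. A retained-intron transcript of Dll3 starts inside this peak, and an ATAC peak of 610 bp lies within it. The nearest start of another coding gene, that of Selenov, was 2764 bp away. A further Dll3 peak, with its summit in exon 4, had a fold enrichment of 9.80.

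Within Notch4 the strong peak stood at the 3′ end, 21740 to 24516 bp past the start, and reached beyond the end of the gene. It had a fold enrichment of 19.2, a −log10 q of 376 and a width of 2777 bp, against 2.83 at the start. Its summit was in exon 30. It held the starts of 3 noncoding transcripts of Notch4 and lay 1022 bp from the start of Gpsm3. Another peak, with its summit in intron 9, had a fold enrichment of 6.94 and an ATAC peak of 1026 bp over it. Notch4 thus carried more H3K4me3 signal at both inner peaks than at its own start.

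**Figure D3:**
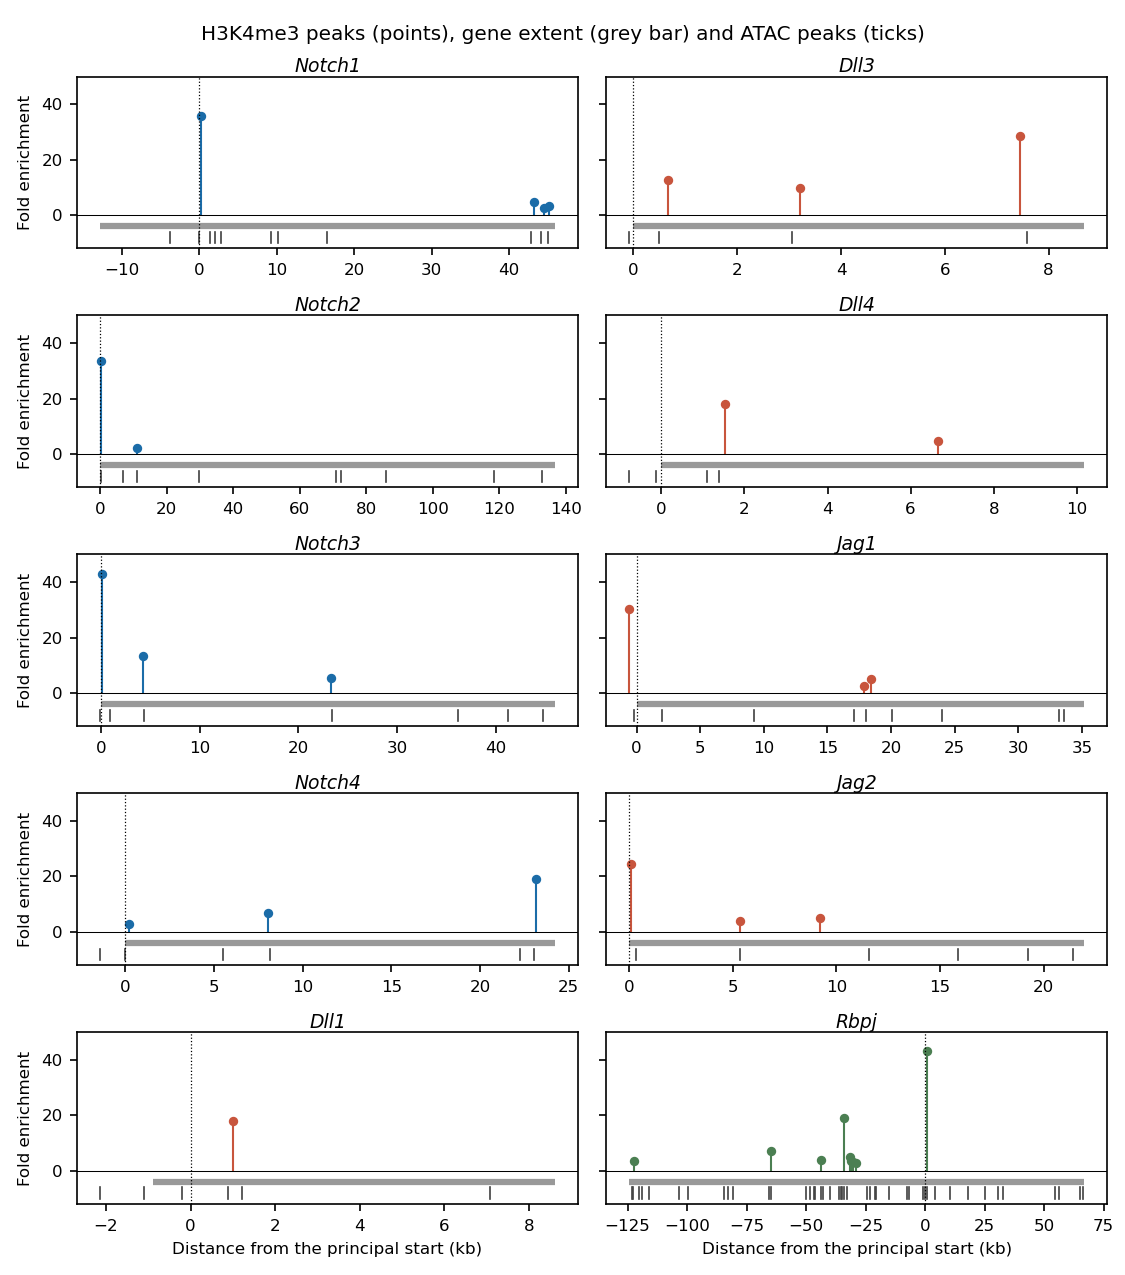
H3K4me3 peaks at their summits (points, y axis: fold enrichment) along each gene (x axis: distance from the principal start in Kb, on a scale of its own in each panel), with the gene as a grey bar and ATAC peaks as ticks. In Notch4 and Dll3 the tallest point stands away from the dotted start line, at 19.2 and 28.7; in the other 8 genes it is the peak over the start.

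Rbpj held 8 far H3K4me3 peaks, all upstream of the principal start and inside the long annotated gene. The strongest had a fold enrichment of 19.2, a −log10 q of 201 and a width of 3151 bp, and lay 89084 to 92234 bp past the 5′ end of the gene. A protein-coding transcript of Rbpj and a retained-intron one start inside it. Downstream of it followed 4 narrow peaks with fold enrichments of 5.03, 3.67, 3.33 and 2.72, none with an ATAC peak. The others had fold enrichments of 7.16, 3.80 and 3.42. No H3K4me3 peak was listed in the body of the principal transcript beyond the start peak, although 10 ATAC peaks were. Those 10 were 125 to 307 bp wide.

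The other genes had weaker inner peaks. Notch3 had one with its summit in intron 2, 3732 to 5059 bp past the start, at a fold enrichment of 13.4 with a −log10 q of 133, and one in exon 24 with 5.23. No annotated transcript starts inside either, and the nearest start of another coding gene was that of Ephx3, 26429 bp from the intron 2 peak. Notch1 had 3 in its last exon, exon 34, at 4.75, 2.56 and 3.22, between 42803 and 45262 bp past the start, with Sec16a as the nearest other coding start. Notch2 had a single one in intron 1 at 2.09, although the gene is 137 Kb long. Of the ligands, Dll4 had one in exon 9 at 4.84, Jag1 had 2 in intron 5 at 5.03 and 2.68, and Jag2 had one in intron 3 at 4.87 and one in intron 2 at 3.88. The nearest other coding starts to these peaks were those of Sec22b for Notch2, Chac1 for Dll4, Mkks for Jag1 and Nudt14 for Jag2, each over 10 Kb away. Over all 23 far peaks, a transcript of the same gene started inside 3 and none inside 20. Those 20 were not all free of annotated starts. Mir6941 started inside the Jag2 intron 3 peak, and Gm40304 inside the Rbpj peak with a fold enrichment of 3.80.

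ATAC peaks lay over 2 Kb from the principal start in 9 of the 10 genes, against 61.4% of all protein-coding genes. Dll4 had none. The receptors held 25 such peaks, the ligands 15 and Rbpj 41. Per 10 Kb of gene, start peaks included, the median was 1.70 ATAC peaks for receptors (0.658 at Notch2 to 2.06 at Notch4), 2.95 for ligands (2.56 at Jag1 to 4.61 at Dll3) and 2.30 for Rbpj, against 1.11 for all protein-coding genes. In short genes the peaks at the start make up more of this density. Of the 81 far ATAC peaks, 34 lay in introns, 32 upstream of the principal transcript, 11 in coding exons and 4 in untranslated regions by their midpoints. Of the 102 ATAC peaks, 42 (41.2%) overlapped an H3K4me3 peak by 1 bp or more and 60 (58.8%) did not. The 42 include peaks within 2 Kb of the principal start. Among the 81 far ATAC peaks, 21 overlapped an H3K4me3 peak. Over the whole ATAC list, in which peaks outside genes are included, 21.1% overlapped one. Rbpj held 34 of the 60 ATAC peaks without H3K4me3, with 10 of its 44 overlapping. In the other 9 genes 32 of 58 (55.2%) overlapped. Among these, all 4 ATAC peaks of Dll3 and all 3 of Dll4 overlapped H3K4me3, as did 7 of the 11 of Notch1, but 2 of the 9 of Notch2. Conversely, 27 of the 33 H3K4me3 peaks (81.8%) shared bases with an ATAC peak, against 87.1% over the whole list. Of the 6 that did not, 4 were the narrow peaks of Rbpj and the others were those of Dll4 exon 9 and Jag2 intron 3.

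The CpG content of the 300 bases before the principal start varied widely, as the printed sequences show. Notch4 had 4 CpG dinucleotides, fewer than the median of 10 over all protein-coding genes. Dll3 had 14, Dll4 17, Dll1 18, Notch1 19, Notch3 23, Jag1 27, Jag2 29, Rbpj 29 and Notch2 35. Across all protein-coding genes, the median was 17 with an H3K4me3 peak at the principal start and 2 without one. Of the 6998 genes with at most 4 CpG in this window, 1161 (16.6%) had an H3K4me3 peak there, with a median fold enrichment of 14.8. The start peak of Notch4, at 2.83, was thus low also for a marked gene with so few CpG. The windows around the summits of the stronger inner peaks were richer than those before the start at both Notch4 (28 against 4) and Dll3 (49 against 14). These windows are placed differently, since those before the start were not centred on a summit. CpG around the summits of the start peaks was not counted. At Notch3 the order was the other way, with 17 in the intron 2 window against 23 before the start. At Rbpj the upstream peak had 9 around its summit against 29 before the principal start.

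**Figure D4:**
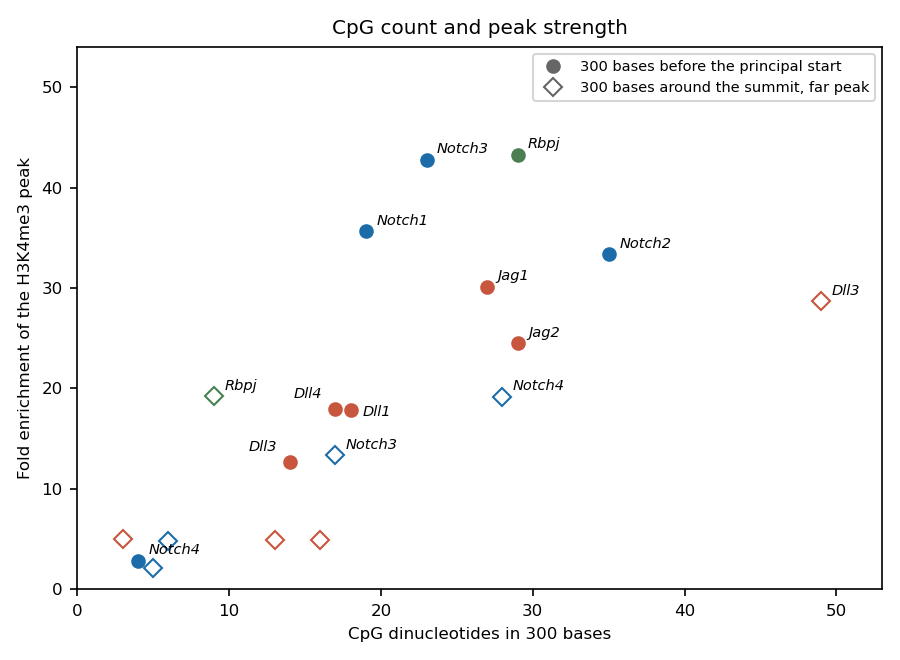
Fold enrichment of the H3K4me3 peak (y axis) against the number of CpG dinucleotides in 300 bases (x axis). Filled circles are the 10 principal starts (bases before the start). Open diamonds are the strongest far peak of the 9 genes that have one (bases around the summit), so the windows are placed differently. Colours give the role as receptor (blue), ligand (red) and Rbpj (green). Notch4 has 4 CpG and 2.83 at its start, and 28 and 19.2 at its far peak. Dll3 has 14 and 12.7 at its start, and 49 and 28.7 at its far peak.

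The same windows before the principal start were searched on both strands for TGGGAA, the core of the sequence that Rbpj binds (TTCCCA on the other strand). Of the 10 genes, Rbpj alone held it, with 2 matches, while 25.6% of all protein-coding genes held at least 1. The longer form CGTGGGAA (TTCCCACG on the other strand), which contains the core, was in none of the 10 and in 0.880% of all genes. A match in these letters is not a bound site.

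The rest of the pathway was described from a list of 52 genes by role. All 52 had an H3K4me3 peak within 2 Kb of the 5′ end of the gene, against 66.4% of all protein-coding genes. An ATAC peak was there in 51, against 74.6%. Furin lacked one, a protease that matures the receptors and is named here after its values were seen. At the principal start 51 (98.1%) had an H3K4me3 peak, against 67.0% of all protein-coding genes. The exception was Numb, an inhibitor of the receptors whose principal start lies 79591 bp from its 5′ end, where the fold enrichment was 42.8. The median fold enrichment over the list was 33.7, beside 30.6 over all marked protein-coding genes. Values ran from 7.86 at Mfng, a glycosyltransferase that modifies the receptors, to 67.7 at Kat2a, an acetyltransferase. Co-repressors of Rbpj had the highest median of the roles at 50.3 (31.2 to 61.0, 8 genes), followed by co-activators at 42.4 (13.4 to 67.7, 7 genes) and the ubiquitin ligases that act in ligand endocytosis at 40.1 (4 genes). Receptor proteases had 36.9 (3 genes), regulators of the receptor 33.7 (7 genes with a peak), glycosyltransferases 31.0 (5 genes) and γ-secretase subunits 28.4 (7 genes). The lower medians were those of the 6 target genes at 22.3 (18.3 to 30.7), the 3 other ligands at 16.6 (15.8 to 32.3) and Rbpjl, the paralog of Rbpj and the single gene of its role, at 16.7. The median of the 5 ligands described above, 18.0, lay between those of the targets and the other ligands, and that of the 4 receptors, 34.5, between those of the regulators of the receptor and the receptor proteases.

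**Figure D5:**
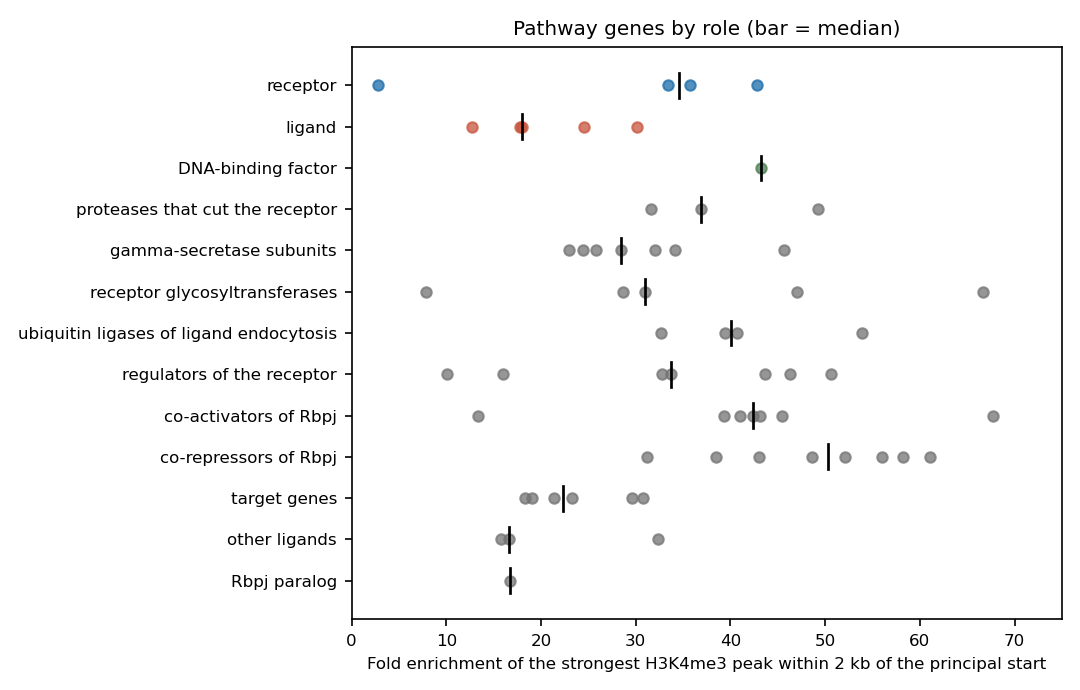
Fold enrichment of the strongest H3K4me3 peak within 2 kb of the principal start (x axis) for each gene, by role (y axis), with receptors in blue, ligands in red, Rbpj in green and the other pathway genes in grey. Black bars are medians; they run from 16.6 for the other ligands to 50.3 for the co-repressors, with the ligands at 18.0 and the receptors at 34.5.

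Beside the labelled cell type, 8 embryonic stem cell markers were looked up. All 8 had an H3K4me3 peak at the principal start, with fold enrichments of 14.9 to 42.9. Their median was 26.8, beside 30.6 over all marked protein-coding genes. At the 5′ end 7 had a peak, Esrrb being the exception. Since 67.0% of all protein-coding genes had a peak at the principal start, its presence cannot decide the cell type. Of 8 fibroblast markers, which feeder cells would carry, 5 had an H3K4me3 peak at the principal start (7.35 to 25.9) and 7 had an ATAC peak. Col3a1, Postn and Lum had no H3K4me3 peak there. Esrrb and these 3 are named after their values were seen. The fibroblast marker shares were 62.5% for H3K4me3 and 87.5% for ATAC, beside 67.0% and 74.9% over all protein-coding genes, and 8 genes cannot separate such shares. The part of feeder cells in the peaks of the Notch genes was not tested. A peak list gives no transcript level, and none of the values above is one.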

How the data were processed

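H3K4me3 ChIP-seq and ATAC-seq were each done on F123 cells in 2 replicates. For ChIP-seq the authors ran the histone pipeline of ENCODE with its default parameters. The deposited list gives positions, a fold enrichment (a ratio of signal to the caller's background), −log10 p and q values, a summit, and a display score, which was not used. Its aligner and caller are not given in the sources used here. The authors aligned ATAC-seq reads to mm10 with Bowtie 1.1.2, removed duplicate and mitochondrial reads, moved read ends by 4 bp, called peaks with MACS2 2.1.1.20160309 (p of 0.01) and kept, with bedtools 2.27.1, pooled peaks found in both replicates. The deposited ATAC list holds positions only.

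All 33449 H3K4me3 and 178722 ATAC peaks on chromosomes fitted within mm10 chromosome lengths, and the others lay on scaffolds. Genes were protein-coding genes of GENCODE M21. The principal start is that of the APPRIS principal transcript. A peak counted when it shared at least 1 bp with the window (2 Kb either side of the start) or gene. For H3K4me3, percentiles are shares of marked protein-coding genes with a lower value. Those of the width of an ATAC peak are over the whole ATAC list. Those of the number of ATAC peaks are over protein-coding genes with an ATAC peak at the principal start. Exons and introns are those of the principal transcript. Pathway genes were listed from general knowledge, and 52 of 52 matched. Sequence came from the RefSeq copy of mm10. Overlaps were checked on simulated windows against bedtools 2.31.1, with equal results. Python 3.11.15, numpy 2.4.6, pandas 2.3.3 and matplotlib 3.10.9 were used.

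The members, lists and comparisons were chosen with earlier results of these data known. Named genes were the 10 members, pathway genes without an H3K4me3 peak or with the highest or lowest fold enrichment, and genes whose starts neighbour a member's peaks. Rbpjl is named as the only gene of its role, and other genes outside the rule are said to be named after their values were seen. No test was possible, since each list stands for both replicates. Alternatives were other windows, all transcript starts, midpoints, minimum −log10 q values and the widest ATAC peaks, with the principal start added after seeing the data.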

Additional observations from a re-analysis of the deposited data

How the results depend on the processing

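Of all protein-coding genes, 66.4% had an H3K4me3 peak at the 5′ end, which became 65.2% with a window of 1 Kb, 69.3% with 5 Kb, 69.6% with the starts of all transcripts, 61.5% with a −log10 q of at least 50 and 65.1% with peak midpoints. The ATAC share, 74.6%, became 71.0%, 81.3% and 77.9% under the first 3 of these, 69.9% with the widest 50% of peaks and 73.9% with midpoints. The 9 members with an H3K4me3 peak at the 5′ end became 7 with a −log10 q of at least 50 (Notch1, Notch4 and Rbpj without one), 8 with at least 5 (Notch1 and Notch4), 8 with 1 Kb (Notch1 and Rbpj) and 10 with all transcripts or the principal start. The number of members with an ATAC peak at the start stayed between 9 and 10. With 5 Kb the summed H3K4me3 width rose to 5304 bp at Dll1, 5784 at Dll4, 3216 at Dll3 and 3564 at Notch3. Of the 33 H3K4me3 peaks in the genes, 14 had a −log10 q of at least 50, beside a median of 56.4 over the whole H3K4me3 list. Of the 102 ATAC peaks 58 were among the widest 50%, a cut that keeps 50% of the whole ATAC list. By the 5′ end, the strongest peak lay elsewhere in 4 genes (Notch1, Notch4, Dll3 and Rbpj), against 9.85% of protein-coding genes. By the principal start, chosen after seeing the data, it lay elsewhere in 2, against 9.09%. Both shares are over all protein-coding genes, with those that had no far peak included. The principal start has the opposite limit at Numb and at Fbxw7, named after its values were seen, whose fold enrichment was 10.0 there and 38.5 at the 5′ end. No paired analysis was possible because the lists hold no values per replicate, and no replicate could be left out. Without read counts, depth sets an unknown limit on weak peaks.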

Other observations

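Within 5 Kb beyond the ends of the 10 genes, outside the windows used above, lay 8 more H3K4me3 peaks. The strongest without an annotated start inside it was downstream of Dll4. It began 1327 bp past the 3′ end of the gene, spanned 1170 bp and had a −log10 q of 318 and a fold enrichment of 22.3, beside 18.0 at the start of Dll4, and it held 1 ATAC peak. The nearest start of another gene was 11095 bp away. Upstream of the start peaks, Dll4 had a further peak with a fold enrichment of 8.46 that ended 2468 bp before the gene, and Dll1 had one with 9.75 whose nearer edge lay 2832 bp before the gene. Beyond the 3′ end of Dll3 a peak of 19.2 held the start of Selenov. Beyond that of Notch4, a peak of 3.96 held the start of Gpsm3 and one of 26.3 that of Pbx2, a gene named after its values were seen. The other 2, beside Notch3 and Dll3, had fold enrichments of 3.98 and 3.04.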
